A study of Mus musculus with 3 samples.

Results

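Alpha-beta T cells of mouse dorsal skin were identified in 3 droplet-based single-cell RNA-seq libraries by the genes they transcribe. Cells entered with 300 or more genes and no more than 10.0% of their UMIs from mitochondrial genes (UMIs, unique molecular identifiers, each count 1 captured RNA molecule). A kept cell was taken as an alpha-beta T cell with at least 1 UMI in at least 2 of Cd3d, Cd3e and Cd3g, at least 1 UMI of Trbc1 or Trbc2, and no UMI of Trdc, Trdv4, Pdgfra or Csf1r. These counts chose 372 of 33511 cells, and the levels of the genes named in the rule are therefore given as a description only.

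The libraries came from full-thickness dorsal skin of wild type C57BL/6J mice labelled as female and 8 weeks old, and there was 1 library per condition. The study gives this age for the mice as purchased. The age when skin was taken, after the weeks of irradiation in UV and Rux, was not stated. Control mice (CON) were not irradiated. UV mice were irradiated on alternate days over 12 weeks, at an irradiance of 3.5 mW/cm2 for UVB and 0.60 for UVA. Rux mice received the same irradiation, each time followed by 1.5% ruxolitinib ointment, an inhibitor of the kinases JAK1 and JAK2, and all skin was taken 24 h after the last exposure. The study describes the CON and UV mice as treated with vehicle, and the number of mice behind a library was not stated. With 1 library per condition no difference has a replicate check, so no test was run between conditions and every interval below covers counting error only.

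T cells recognise antigen through a receptor made of an alpha and a beta chain, or of a gamma and a delta chain, that signals through the CD3 proteins. Alpha-beta cells divide into CD4 helper cells, CD8 cytotoxic cells and FOXP3 regulatory cells, and in skin many of them are resident. In mouse skin the epidermis also holds gamma-delta cells, the dendritic epidermal T cells. Receptors for IL-2, IL-7, IL-15 and the interferons carry JAK kinases that phosphorylate STAT factors, and these factors switch on genes such as Cish, Socs1, Socs3 and Irf1.

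The labels and the counts disagreed on the sex of the mice. Ddx3y, a gene of the Y chromosome, had a UMI in 55.9% of kept cells in CON, 55.7% in UV and 60.6% in Rux. Xist, the transcript that silences an X chromosome in female cells, had a UMI in 0.158%, 0.124% and 0.118% of them. All 3 libraries were alike in this.

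Cell barcodes shared between libraries were few, 50 between UV and CON, 40 between Rux and UV and 28 between Rux and CON, and no member carried a shared barcode. Several members carried RNA of other cells. The largest UV member held 153393 UMIs, 17.6% of all member UMIs of that library, against 25016 in the next. It had 1 UMI of Cd3d, 1 of Cd3g and 2 of Trbc2, none of Trac or Cd2, and 581 of Krt14, a keratin of basal keratinocytes, so each UV result below is followed where needed by its value in a stricter set. That set of 67 CON, 92 UV and 159 Rux members left out those with the highest Scrublet doublet scores, with over 20000 UMIs, with over 1.0% of UMIs from marker genes of other cells, or with at least 2 genes of a macrophage, mast, B, neutrophil, endothelial or muscle list. Some RNA of other cells remained in it, since 92.5% of its CON, 97.8% of its UV and 96.2% of its Rux members had a UMI of the 8 fibroblast genes, and 95.5%, 57.6% and 74.2% one of the 8 keratinocyte genes.

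Genes the rule did not use were checked against the label. Trac, the constant part of the alpha chain (mm10 chr14:54220521-54224206, plus strand), had a UMI in 89.3% of CON, 85.3% of UV and 87.2% of Rux members. In gamma-delta cells, chosen by the same Cd3 rule with at least 1 UMI of Trdc or Trdv4, it was found in 24.8%, 14.8% and 26.8%. In cells with a Pdgfra UMI and none of Ptprc, which are mostly fibroblasts and should lack it, the shares were 0.299%, 0.288% and 0.420%. Trac therefore separated the members from both other sets in every library.

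Cd2, an adhesion receptor of T cells (chr3:101275899-101287939, minus strand), was found in 89.3%, 88.1% and 87.2% of members and in 78.8%, 25.9% and 24.4% of gamma-delta cells. The co-stimulatory receptor Cd28 was found in 85.7%, 83.5% and 80.4% of members and in at most 25.5% of gamma-delta cells. Of the 13 genes on the gamma-delta list, Tcrg-V5 was at 0 in every library and Trdc and Trdv4 were at 0 by the rule. The list summed to 35, 64 and 87 UMIs, with a UMI in 14.3%, 18.3% and 16.8% of members. Of the 8 CON UMIs of Tcrg-C1, 7 were in 1 member. Whether such members were gamma-delta cells was not tested. Of the 6 genes on the natural killer and innate lymphoid list, Klra8 and Klra4 were at 0 in every library, and Eomes, which CD8 T cells also express, was the most abundant. A UMI of this list was found in 7.14%, 14.7% and 14.0% of members.

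Of the members, 62 CON, 73 UV and 116 Rux cells had all 3 Cd3 genes, and 22, 36 and 63 had exactly 2. Trac was found in 90.3%, 87.7% and 89.7% of the former and in 86.4%, 80.6% and 82.5% of the latter. Cells just outside the rule, with 1 Cd3 gene and all other conditions met, numbered 53, 23 and 34, and Trac was found in 20.8%, 56.5% and 38.2% of them. Another 12, 7 and 14 cells met every condition but had no UMI of Trbc1 or Trbc2. No CON or Rux cell and 1 UV cell that failed the filter on genes and mitochondrial UMIs met the rule.

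Alpha-beta T cells made up a larger share of the kept cells in Rux than in UV or CON. They numbered 84 of 12039 CON cells, 0.698% (exact Clopper-Pearson 95% interval 0.557 to 0.863). They numbered 109 of 11331 UV cells, 0.962% (0.791 to 1.16), and 179 of 10141 Rux cells, 1.77% (1.52 to 2.04). The CON and UV intervals overlapped and the Rux interval lay above both.

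Set against all cells with a UMI of Ptprc, the pan-leukocyte phosphatase CD45, the order was different. The members were 9.71% of 834 such cells in CON (7.79 to 11.9), 13.4% of 785 in UV (11.1 to 16.0) and 12.4% of 1407 in Rux (10.7 to 14.2). The UV and Rux intervals overlapped here, and Rux had the most cells with Ptprc. Cells with a Pdgfra UMI and none of Ptprc were 27.8%, 39.8% and 49.3% of the kept cells, and the part of tissue dissociation in these shares was not tested.

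The gamma-delta cells were instead most frequent in CON, with 137 CON, 27 UV and 41 Rux cells, 1.14%, 0.238% and 0.404% of kept cells. Alpha-beta cells were 38.0% of both sets together in CON (31.6 to 44.8), 80.1% in UV (72.4 to 86.5) and 81.4% in Rux (75.6 to 86.3). Trdv4, the delta segment of dendritic epidermal T cells, was found in 109 of the 137 CON, 13 of the 27 UV and 14 of the 41 Rux gamma-delta cells. The balance of the T cells in these libraries thus differed between CON and both irradiated libraries, and UV and Rux overlapped.

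**Figure D1:**
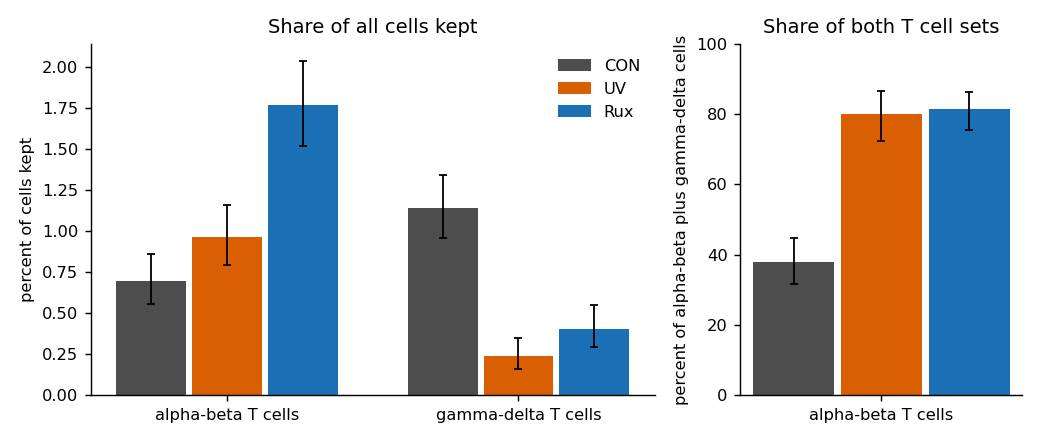
Alpha-beta and gamma-delta T cells as a percent of all cells kept (left) and alpha-beta cells as a percent of both sets (right) in the CON, UV and Rux libraries, with bars for the share and lines for exact 95% intervals. The alpha-beta share was 0.698%, 0.962% and 1.77%, and the share of both sets was 38.0%, 80.1% and 81.4%.

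Sequencing depth per member was similar between libraries. Members held a median of 5484 UMIs in CON (2078 to 23026), 5366 in UV (1487 to 153393) and 5426 in Rux (1329 to 49020), with medians of 2241, 2179 and 2152 genes. Their summed UMIs were 592909, 869155 and 1309082, so values in CON rest on the fewest molecules.

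Members were split by coreceptor: a CD4 gate (a UMI of Cd4 and none of Cd8a and Cd8b1), a CD8 gate (a UMI of Cd8a or Cd8b1 and none of Cd4) and, apart from these, a Foxp3 gate (a UMI of Foxp3). The CD4 gate held 20 CON, 37 UV and 74 Rux members, 23.8% (15.2 to 34.3), 33.9% (25.1 to 43.6) and 41.3% (34.0 to 48.9). The CD8 gate held 34, 31 and 55, 40.5% (29.9 to 51.7), 28.4% (20.2 to 37.9) and 30.7% (24.1 to 38.0). The CD4 gate thus held fewer cells than the CD8 gate in CON and more in UV and Rux. The intervals of each gate overlapped across all 3 libraries. Members in neither gate, with no UMI of these coreceptors, were 34.5%, 37.6% and 27.9%. The CD8 gate could be met by either of its genes and the CD4 gate by Cd4 alone. Which kind of cell was more numerous was therefore not read from the gates. A member with both coreceptors was seen once, in CON, and among 109 UV and 179 Rux members none was seen, with exact intervals up to 3.33% and 2.04%.

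With each member thinned to 2000 UMIs, as the mean over all possible draws and leaving out 2 UV and 1 Rux member with fewer, the CD4 gate held 12.6%, 18.3% and 22.6% and the CD8 gate 29.8%, 20.6% and 24.9%. Members in neither gate were then 57.5%, 61.0% and 52.5%. At this equal depth the CD8 share was above the CD4 share in every library, so which of the gates was larger in UV and Rux depended on the depth. The order of the libraries within the CD4 gate and within the CD8 gate was the same as with all UMIs. In Pdgfra cells without Ptprc, thinned likewise, no gate exceeded 0.155%. Foxp3, the master factor of regulatory T cells, was found in 8 CON, 11 UV and 12 Rux members, 9.52% (4.20 to 17.9), 10.1% (5.15 to 17.3) and 6.70% (3.51 to 11.4), or 3.61%, 7.05% and 4.37% after thinning, where CON was below Rux. The gate held in the stricter set 3 of 67 CON (4.48%), 9 of 92 UV (9.78%) and 10 of 159 Rux members (6.29%), so 5 of the 8 CON cells were among those left out there. The 8 CON cells had a median of 15417 UMIs against 4863 and 5067.5 in UV and Rux, and 5435.5 in the CD4 gate of CON, so gene shares of these 8 cells are given but not compared with other cells.

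**Figure D2:**
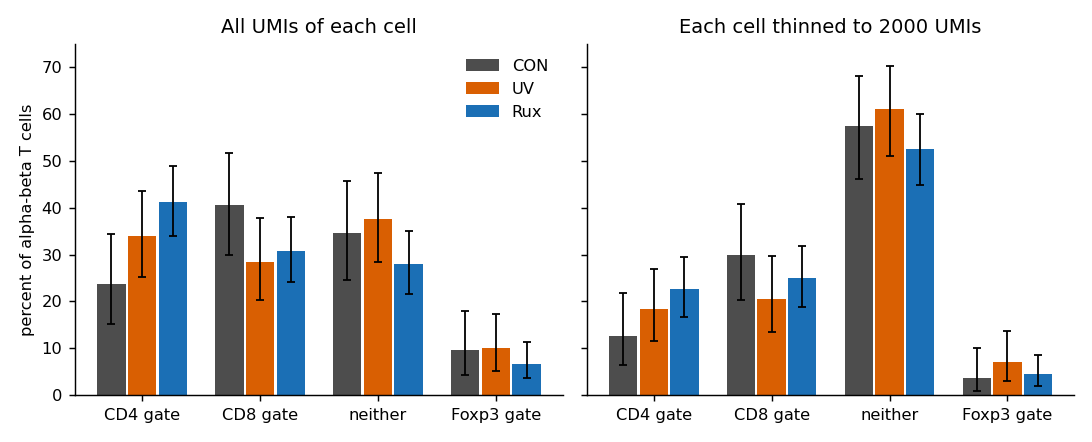
Percent of alpha-beta T cells in the CD4 gate, the CD8 gate, neither of these and the Foxp3 gate, with all UMIs (left) and with each cell thinned to 2000 UMIs (right). Bars are shares and lines exact 95% intervals. The CD4 share was lowest in CON and highest in Rux in both panels, with overlapping intervals.

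Cd40lg, Nkg7 and Klrd1, which did not define the gates, differed between them. Cd40lg, the helper ligand for CD40, was found in 6 of 20 CON, 14 of 37 UV and 29 of 74 Rux CD4-gate cells and in 5.88%, 12.9% and 0% of CD8-gate cells (0 of 55 in Rux allows up to 5.45%). Nkg7, a protein of cytotoxic granules, was found in 91.2%, 90.3% and 85.5% of CD8-gate cells and in 6 of 20, 21 of 37 and 46 of 74 CD4-gate cells. Klrd1, the CD94 chain of killer lectin receptors, was found in 58.8%, 74.2% and 58.2% of CD8-gate and in at most 10.0% of CD4-gate cells. The helper gene Cd40lg was therefore more frequent in the CD4 gate and the cytotoxic genes Nkg7 and Klrd1 in the CD8 gate, with Nkg7 the least exclusive of these 3.

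The chemokine gene Xcl1 had no UMI in CD4-gate cells of CON and UV, which allows up to 15.0% of 20 and 8.11% of 37 cells, and was found in 4.05% of them in Rux. In CD8-gate cells it was found in 41.2%, 22.6% and 21.8%. Itgae, the CD103 chain that binds E-cadherin of the epidermis, was found in 85.3% of CON, 48.4% of UV and 49.1% of Rux CD8-gate cells. In CD4-gate cells the shares were 25.0%, 62.2% and 36.5%. In the Foxp3 gate Itgae was found in 11 of 11 UV and 7 of 12 Rux cells. CD103 transcripts were thus more frequent in the CD8 than in the CD4 gate in CON and Rux and less frequent in UV, and in UV and Rux the Foxp3 gate had the highest share of these gates.

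Regulatory genes other than Foxp3 were mostly more frequent in Foxp3-gate than in CD4-gate cells, and a cell can be in both gates. Of these 18 genes, 16 had a higher share of cells with a UMI in the Foxp3 gate in UV, 1 an equal share (Icos) and 1 a lower one (Capg), and in Rux 15 had a higher and 3 a lower share (Tnfrsf4, Il10 and Ccr8). Ikzf2, which encodes HELIOS, was found in 100% of UV and 91.7% of Rux cells of the Foxp3 gate, against 37.8% and 24.3% of CD4-gate cells, and in 8 of the 8 CON cells. Il1rl1, the IL-33 receptor, was found in 9 of 11 UV and 8 of 12 Rux cells, against 32.4% and 18.9%, and in 4 of the 8 CON cells. Areg, a growth factor of regulatory T cells in tissue repair, was found in 54.5% of UV and 66.7% of Rux cells, against 29.7% and 25.7%. Tnfrsf9, the co-stimulatory receptor 4-1BB, was found in 100% of both, against 67.6% and 68.9%, and the inhibitory receptor Ctla4 in 81.8% and 100%, against 75.7% and 85.1%. With 8, 11 and 12 cells these shares differ by few cells.

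**Figure D3:**
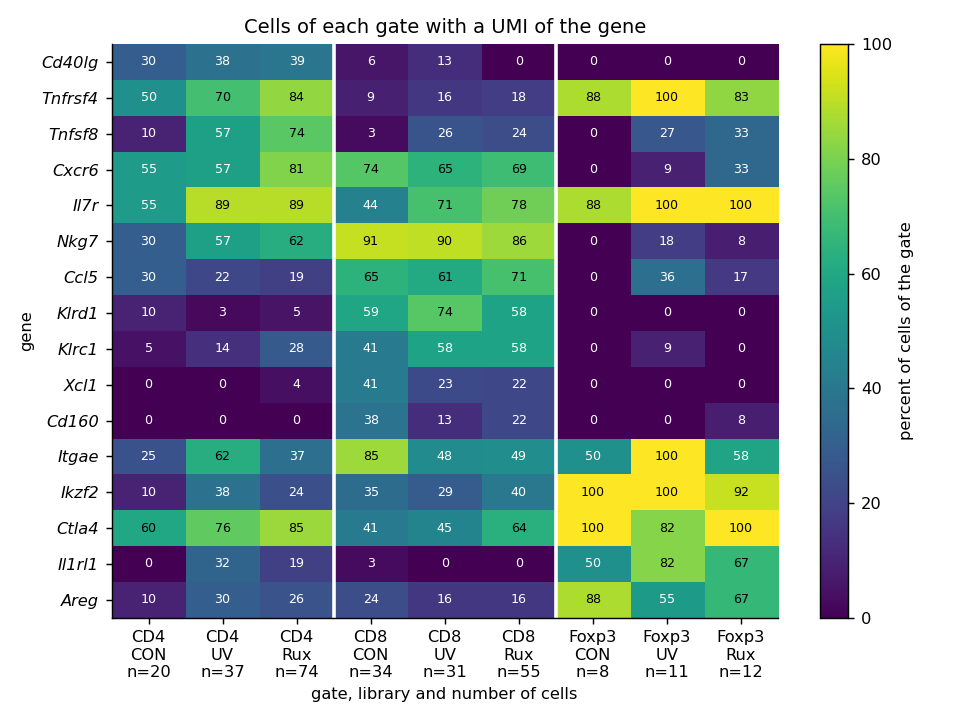
Percent of CD4-gate, CD8-gate and Foxp3-gate alpha-beta T cells with a UMI of each of 16 genes (rows) in each library (columns, with the number of cells). Brighter cells are larger shares. Cd160, Xcl1 and Klrd1 were largely on the CD8 side, and Tnfsf8 in CD4-gate cells went from 10.0% in CON to 56.8% in UV and 74.3% in Rux.

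The variable segments of the receptor were seen in few members in these libraries, which are read from the 3' end of the transcripts. A Trbv segment was found in 11 CON, 19 UV and 21 Rux members, over 8, 13 and 11 different segments of 35. A Trav segment was found in 19, 22 and 26 members, over 12, 19 and 16 of 128. The most frequent Trbv segments were Trbv19 in CON, in 3 members, Trbv2 and Trbv19 in UV, in 3 members each, and Trbv12-2 in Rux, in 6 members, so no segment was in more than 28.6% of the cells in which any was read. A second Trbv segment was read in 1 member, in Rux.

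Member UMIs were summed per library and compared as log2 ratios of CPM (the UMIs of a gene scaled to 1e6 member UMIs), with 0.5 UMI added, over genes with at least 30 UMIs in the 2 libraries, and a gene past 2-fold is one with a log2 ratio of at least 1 or at most -1. Of 6674 genes, 525 were past 2-fold higher in UV than in CON (7.87%) and 225 lower (3.37%). Of 7870 genes, 158 were past 2-fold higher in Rux than in UV (2.01%) and 382 lower (4.85%). Of 7353 genes, 381 were past 2-fold higher in Rux than in CON (5.18%) and 275 lower (3.74%). In the stricter set the counts were 194 and 190 of 4778, 94 and 140 of 6078, and 201 and 211 of 5817, or 4.06% and 3.98%, 1.55% and 2.30%, and 3.46% and 3.63%. The excess of genes higher in UV than in CON thus did not remain in the stricter set.

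Genes of other skin cells headed the lists of all members. Sparcl1 and Fabp4, made by endothelial and fat cells, had log2 ratios of 5.26 and 5.09 for UV over CON, and 2.43 and 0.51 in the stricter set, where Sparcl1 rests on 0 and 3 UMIs. Il1b, an inflammatory cytokine of myeloid cells, had 1, 2 and 243 UMIs in CON, UV and Rux members and 1, 2 and 13 in the stricter set. Krt71 and Krt25, keratins of the hair follicle, had log2 ratios of 3.86 and 3.62 for Rux over UV, and 1.02 and -0.09 in the stricter set. Acta1, skeletal muscle actin, had 61, 0 and 2 UMIs.

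Marker lists of other cells did not all move one way. The 4 pericyte genes summed to 3 CON, 240 UV and 312 Rux UMIs, of which Rgs5 gave 0, 177 and 264, and to 2, 9 and 12 in the stricter set. The 4 endothelial genes summed to 35, 295 and 303 UMIs, led by Pecam1, with Cdh5 and Kdr at 0 in CON. In the stricter set they summed to 25, 40 and 115, of which Pecam1 gave 25, 39 and 114. Cdh5 and Flt1 were at 0 there in every library, so these sums rest on Pecam1 and not on the list. The 8 keratinocyte genes held 0.182%, 0.209% and 0.0693% of member UMIs, and 0.0421%, 0.0167% and 0.0271% in the stricter set. The 8 fibroblast genes were at 1267, 946 and 816 CPM, and at 595, 613 and 675 in the stricter set. The 4 erythrocyte genes, led by Hbb-bs, were at 5.06, 44.9 and 44.3 CPM, and still at 7.47, 46.1 and 53.1 in the stricter set. The part of this RNA in the ratios below was not tested beyond that set. For the genes that follow, values are over all members unless the stricter set is named.

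Tnfsf8, the CD30 ligand of activated T cells (chr4:63831308-63861347, minus strand), had the highest log2 ratio for UV over CON and for Rux over CON among the genes compared from a fixed list of 25 cytokines and ligands of T cells. Genes not on that list had higher ratios over all members. Among them were Csf3 and Gzma in both comparisons, Hbegf for UV over CON, and Il1b and Cxcl14 for Rux over CON. Tnfsf8 had 29 UMIs in CON, 272 in UV and 647 in Rux members, or 48.9 (32.8 to 70.2), 313 (277 to 352) and 494 (457 to 534) CPM. A UMI was found in 9.52%, 35.8% and 51.4% of members, and in 5.78%, 25.8% and 38.6% after thinning to 2000 UMIs. The log2 ratio was 2.66 for UV over CON (2.12 to 3.28), 0.66 for Rux over UV (0.45 to 0.87) and 3.31 for Rux over CON (2.80 to 3.93). In the stricter set these were 4.22, 0.46 and 4.68, where Tnfsf8 had the highest ratio of any gene that met the naming rule for UV over CON and for Rux over CON. Of the 29 CON UMIs, 15 were in 1 cell.

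Most Tnfsf8 UMIs were in the CD4 gate, with 16, 202 and 454 UMIs in 10.0%, 56.8% and 74.3% of its cells. In the CD8 gate there were 1, 12 and 61 UMIs in 2.94%, 25.8% and 23.6% of cells. Gamma-delta cells also differed, with 48.9, 242 and 262 CPM. In Pdgfra cells, which hardly express Tnfsf8, the level was 1.27, 0.696 and 0.891 CPM.

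Il7r, the IL-7 receptor chain that keeps resting and resident T cells alive (chr15:9505788-9530176, minus strand), was also higher in both irradiated libraries. It had 156, 531 and 784 UMIs, or 263 (223 to 308), 611 (560 to 665) and 599 (558 to 642) CPM. A UMI was found in 53.6%, 80.7% and 84.9% of members, and in 33.4%, 62.1% and 61.0% after thinning. The log2 ratio was 1.21 for UV over CON (0.96 to 1.48), -0.03 for Rux over UV (-0.19 to 0.13) and 1.18 for Rux over CON (0.94 to 1.44), and 1.69, -0.32 and 1.37 in the stricter set. A UMI was found in 55.0%, 89.2% and 89.2% of CD4-gate cells and in 44.1%, 71.0% and 78.2% of CD8-gate cells. In gamma-delta cells Il7r was 113, 603 and 1039 CPM, so CON was lowest in both T cell sets.

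Pdcd1, the inhibitory receptor PD-1, had 71, 181 and 375 UMIs, or 120 (93.5 to 151), 208 (179 to 241) and 286 (258 to 317) CPM. The log2 ratio was 0.79 for UV over CON (0.39 to 1.22) and 1.25 for Rux over CON (0.89 to 1.65), and 1.22 and 1.31 in the stricter set. In CD4-gate cells a UMI was found in 15.0%, 59.5% and 58.1%, in CD8-gate cells in 52.9%, 51.6% and 67.3%, and in cells of neither gate in 27.6%, 41.5% and 42.0%. The CON share of the CD4 gate rests on 3 of 20 cells. Of the 10 checkpoint genes, 8 had enough UMIs, 7 of them were above 0 for UV over CON with a median log2 ratio of 0.55 (0.93 in the stricter set), 1 was past 2-fold higher (Entpd1) and 1 lower (Cd160), beside 7.87% and 3.37% of all genes.

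Cd160, a receptor of cytotoxic cells, had 29, 7 and 23 UMIs, and a UMI in 38.2%, 12.9% and 21.8% of CD8-gate cells. No CD4-gate cell carried it, which allows up to 15.0% of CON, 8.11% of UV and 4.05% of Rux cells. The log2 ratio was -2.53 for UV over CON (-4.04 to -1.38) and 1.06 for Rux over UV (-0.14 to 2.59), an interval that spans 0, and -2.40 and 0.57 in the stricter set. Ccl4, a chemokine of activated CD8 cells, had 97, 20 and 87 UMIs and log2 ratios of -2.80 (-3.60 to -2.12) and 1.50 (0.82 to 2.31), or -2.67 and 1.26 in the stricter set. These UMIs were concentrated, with 34 of 97, 10 of 20 and 42 of 87 in 1 cell each.

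Xcl1 had 82, 38 and 185 UMIs and log2 ratios of -1.65 for UV over CON (-2.26 to -1.09) and 1.68 for Rux over UV (1.18 to 2.24), and -1.34 and 1.42 in the stricter set, but a UMI in 23.8%, 12.8% and 12.3% of members, and 80 of the 185 Rux UMIs were in 1 cell. Gzma, a granzyme, had 4, 131 and 153 UMIs in 3, 6 and 11 members, with 95 of the 153 Rux UMIs in 1 cell. Gzmb, another granzyme, had 189, 180 and 157 UMIs, or 319 (275 to 368), 207 (178 to 240) and 120 (102 to 140) CPM, and log2 ratios of -0.62, -0.79 and -1.41. In the stricter set the Gzmb ratio for UV over CON was 0.37. Of the 19 cytotoxic genes, 16 were compared for UV over CON, 2 were past 2-fold higher and 2 lower (7.87% and 3.37% over all genes) with a median of -0.07 (0.26 in the stricter set). For Rux over UV, 4 of 18 were past 2-fold higher and 0 lower, beside 2.01% and 4.85% of all genes. The median was 0.30 and turned to -0.04 in the stricter set, where 2 of 17 were higher and 1 lower, beside 1.55% and 2.30% of all genes.

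Slc16a10, an exporter of aromatic amino acids (chr10:40033532-40142258, minus strand), was lower in both irradiated libraries. It had 76, 14 and 56 UMIs, or 128 (101 to 160), 16.1 (8.81 to 27.0) and 42.8 (32.3 to 55.6) CPM. The log2 ratio was -2.95 for UV over CON (-3.93 to -2.16), 1.37 for Rux over UV (0.55 to 2.37) and -1.58 for Rux over CON (-2.11 to -1.07), and -3.16 for UV over CON in the stricter set. Gamma-delta cells were lower too, at 294, 41.4 and 52.3 CPM, whereas Pdgfra cells were higher, at 43.9, 80.2 and 80.5 CPM.

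**Figure D4:**
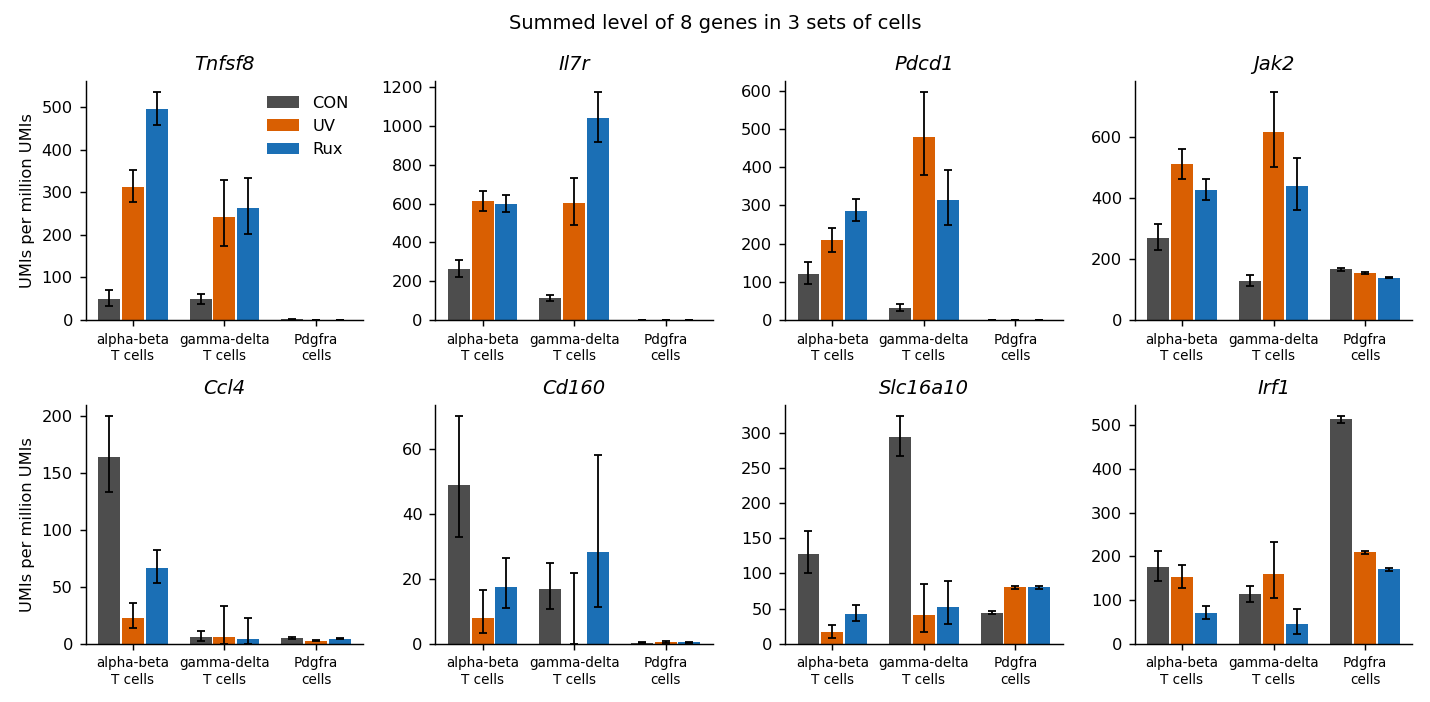
CPM of 8 genes summed over alpha-beta T cells, gamma-delta T cells and Pdgfra cells without Ptprc in each library, with exact Poisson 95% intervals. Tnfsf8, Il7r and Pdcd1 were lowest in CON in both T cell sets and near 0 in Pdgfra cells, and Irf1 in Pdgfra cells went from 514 in CON to 209 in UV and 170 in Rux.

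Other genes of cytokine signalling were compared for their part in the pathway that ruxolitinib blocks. Among kinases and STAT factors, Jak2 had 160, 443 and 558 UMIs, or 270 (230 to 315), 510 (463 to 559) and 426 (392 to 463) CPM, with log2 ratios of 0.91 (0.65 to 1.19), -0.26 (-0.44 to -0.07) and 0.66 (0.40 to 0.92), or 1.31, -0.37 and 0.93 in the stricter set. Jak2 in gamma-delta cells was 129, 615 and 439 CPM, and in Pdgfra cells 166, 153 and 139 CPM. Of the 9 JAK and STAT genes compared for UV over CON, 9 were above 0, beside 3337 of all 6674 genes, with a median of 0.22. None was past 2-fold, beside 7.87% higher and 3.37% lower over all genes. In the stricter set 2 of 9 were past 2-fold higher, beside 4.06% of all genes there. Stat2, a factor of interferon signalling, had 24, 37 and 28 UMIs and a log2 ratio for Rux over UV of -0.99 (-1.76 to -0.25), which was -1.02 in the stricter set. For Rux over UV, 6 of the 10 JAK and STAT genes compared were above 0, beside 3645 of all 7870 genes, with a median of 0.08. None was past 2-fold, beside 2.01% higher and 4.85% lower over all genes. In the stricter set the median was -0.10 and 1 of 10 was lower, beside 2.30% of all genes there.

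Receptors that signal through JAK kinases were mixed. For UV over CON, 3 of 18 were past 2-fold higher (Il7r, Il6st and Il15ra) and 2 lower (Il6ra and Il23r), beside 7.87% and 3.37% of all genes, with a median of -0.08. Il6ra was at -0.21 and Il23r at -0.59 in the stricter set, where 2 of 17 were higher and 0 lower, beside 4.06% and 3.98% of all genes. Il6st, the shared gp130 chain, had 28, 99 and 85 UMIs, and its log2 ratio of 1.25 was 0.65 in the stricter set. For Rux over UV, 0 of 19 were past 2-fold higher and 2 lower, Il15ra at -1.29 and Il13ra1 at -1.57 (-1.28 and -0.12 in the stricter set), beside 2.01% and 4.85% of all genes, with a median of 0.09. Il2ra, Il2rb and Il2rg, the chains of the IL-2 receptor, had log2 ratios of -0.50, 0.21 and 0.38 for Rux over UV.

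Feedback and target genes of the pathway mostly had log2 ratios below 0 for Rux over UV, but few were past 2-fold. Of 16 compared, 2 were above 0, beside 3645 of all 7870 genes. Past 2-fold were 2 lower (Irf1 and Myc) and 0 higher (4.85% and 2.01% over all genes). The median log2 ratio was -0.20 beside -0.04 over all 7870 genes, and -0.41 in the stricter set. None of 15 was past 2-fold there, beside 1.55% higher and 2.30% lower over all genes. For UV over CON 11 of 15 were above 0, with a median of 0.29 beside 0.00 over all 6674 genes. None was past 2-fold (7.87% higher and 3.37% lower over all genes), whereas in the stricter set 2 of 13 were higher (Pim2 and Bcl3), beside 4.06% of all genes, with a median of 0.39. Cish, a feedback inhibitor of STAT5, had 79, 165 and 178 UMIs, or 133 (105 to 166), 190 (162 to 221) and 136 (117 to 157) CPM, with log2 ratios of 0.51 (0.12 to 0.92) and -0.48 (-0.80 to -0.17), or 0.75 and -0.45 in the stricter set. Socs1, an inhibitor of JAK kinases, had log2 ratios of 0.26 (-0.27 to 0.82) and -0.76 (-1.24 to -0.28), or 0.38 and -0.73 in the stricter set. Myc, a growth factor-induced regulator, had 24, 37 and 22 UMIs and a ratio of -1.33 for Rux over UV (-2.17 to -0.54), but 14 of the 37 UV UMIs were in 1 member.

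Irf1, an interferon-induced transcription factor (chr11:53770014-53778374, plus strand), was the target with the most UMIs among those past 2-fold. It had 104 CON, 133 UV and 93 Rux UMIs, or 175 (143 to 213), 153 (128 to 181) and 71.0 (57.3 to 87.0) CPM. A UMI was found in 42 of 84 CON, 48 of 109 UV and 62 of 179 Rux members, and in 26.2%, 23.9% and 15.7% after thinning. The log2 ratio was -0.20 for UV over CON (-0.58 to 0.19), -1.10 for Rux over UV (-1.51 to -0.71) and -1.30 for Rux over CON (-1.72 to -0.89), and -0.61, -0.82 and -1.42 in the stricter set. Irf1 in gamma-delta cells was 113, 160 and 44.3 CPM, and over all kept cells 291, 182 and 127 CPM, so Irf1 was lowest in Rux in those cells too.

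Activated STAT5 binds DNA at the letters TTCNNNGAA, which read the same on both strands. The 250 bases before each RefSeq gene start (build GRCm38) were searched in a promoter table that held 13 of the 18 feedback and target genes. The letters were found before 3 of these 13 genes (23.1%), Irf1, Socs3 and Bcl6, beside 2197 of 27025 genes in all (8.1%). They were also found before 7 of 27 interferon-stimulated genes (25.9%) and before 3 of 15 receptor genes, one of them Il7r, so the feedback and target list did not stand out from these lists. The stretches of 29 bases around the match are shown, with the matched letters in capitals, for the feedback and target genes Irf1 and Socs3 and for the receptor gene Il7r.
Irf1: acagcctgatTTCCCCGAAatgatgaggc
Socs3: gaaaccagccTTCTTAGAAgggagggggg
Il7r: gttcaggagcTTCAGGGAAtaccaagatg
They lie at chr11:53769914-53769942 on the plus strand, chr11:117969502-117969530 on the minus strand and chr15:9530000-9530028 on the minus strand, and the first matched letter is 90, 154 and 142 bases before the RefSeq start. The GENCODE starts of Socs3 and Il7r lie further upstream, so these stretches fall within the gene there, and the GENCODE start of Irf1 is the RefSeq one. Socs3 had 62, 83 and 116 UMIs. For Rux over UV the log2 ratios of these genes were -1.10 for Irf1, -0.11 (-0.53 to 0.32) for Socs3 and -0.03 for Il7r. A match is a description of the letters and says nothing of binding in these cells.

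Interferon-stimulated genes had few calls and medians below 0. Of 39 genes, 29 were compared for UV over CON, 2 were past 2-fold higher and 2 lower (7.87% and 3.37% over all genes) with a median of -0.16. Of 30 for Rux over UV 0 were higher and 2 lower, Iigp1 and Gbp2 (2.01% and 4.85% over all genes), with a median of -0.14. For Rux over CON 5 of 28 were above 0, 0 were past 2-fold higher and 2 lower (5.18% and 3.74% over all genes), with a median of -0.36 (-0.13 in the stricter set) beside -0.03 over all 7353 genes. Gbp2, a guanylate-binding protein, had 21, 91 and 23 UMIs but 13, 7 and 17 in the stricter set. None of the 20 genes compared there for UV over CON and none of the 25 for Rux over UV was past 2-fold. Over all genes of that set 4.06% were higher and 3.98% lower for UV over CON, and 1.55% and 2.30% for Rux over UV. Gbp2 was not among the genes compared in the stricter set, being below the minimum of 30 UMIs. Isg15, a ubiquitin-like protein, had 38, 34 and 51 UMIs and log2 ratios of -0.71 and -0.01.

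Genes of dividing cells were lower in UV than in CON. Of the 14 cell cycle genes, 0 were above 0 for UV over CON and 7 were past 2-fold lower, beside 3.37% of all genes, with a median of -1.01 (-1.32 in the stricter set, where 7 of 10 were lower beside 3.98%). For Rux over CON 3 of 14 were past 2-fold lower, beside 3.74% of all genes, with a median of -0.82 (-1.16 in the stricter set, where 7 of 12 were lower beside 3.63%), and for Rux over UV the median was 0.19. Pcna, the clamp of DNA polymerase, had 189, 120 and 198 UMIs, or 319 (275 to 368), 138 (114 to 165) and 151 (131 to 174) CPM, with a log2 ratio for UV over CON of -1.20 (-1.49 in the stricter set). Top2a, a topoisomerase of dividing cells, had 145, 79 and 206 UMIs and a UMI in 29.8%, 22.9% and 20.1% of members. Its log2 ratio was -1.42 for UV over CON and 0.79 for Rux over UV, and -1.32 and -0.17 in the stricter set. Mki67, a proliferation marker, was 190, 108 and 71.5 CPM over all kept cells and 84.4, 38.6 and 22.9 CPM in Pdgfra cells, so Mki67 was lower in UV than in CON in those cells too, and the part of a library-wide difference was not tested.

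Helper cell lists differed among themselves, with most of the calls in the type 17 list. Of the 12 type 17 genes, 7 were compared for UV over CON, 5 were past 2-fold lower and 1 higher, beside 3.37% and 7.87% of all genes. The median was -1.59, and -1.48 in the stricter set, where 4 of 6 were lower beside 3.98% of all genes. With a minimum of 100 UMIs this median changed sign. Much of the CON signal was in single members, which held 24 of 44 UMIs of Tmem176b, 25 of 52 of Tmem176a and 17 of 42 of Il23r. Tmem176b, a membrane protein, was found in 4 CON and 10 UV members, although its log2 ratio was -1.60. Serpinb1a, an elastase inhibitor, had 146, 51 and 214 UMIs and log2 ratios of -2.06 (-2.56 to -1.60) and 1.47 (1.03 to 1.95), which were -1.12 (-1.67 to -0.60) and 1.19 in the stricter set, and 46 of the 146 CON UMIs were in 1 member. Il17a, the cytokine of this class, had 34 UMIs in 4 CON members, 23 of them in 1, and 12 in 2 UV members, and none in 179 Rux members, which allows a share of up to 1.68%. Il17a in gamma-delta cells was 399, 1365 and 419 CPM, from 570, 231 and 104 UMIs, so more of it was in gamma-delta cells than in members in every library.

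Of the 10 type 1 genes, 9 were compared and 1 was past 2-fold lower for UV over CON, Ifng with 89, 51 and 98 UMIs and a log2 ratio of -1.35 (-1.88 to -0.84), or -0.90 in the stricter set, with a list median of -0.30. Over all genes 3.37% were lower. For Rux over UV all 9 were above 0, beside 3645 of all 7870 genes, with a median of 0.34, or 0.06 in the stricter set. None was past 2-fold, beside 2.01% higher and 4.85% lower over all genes. Of the 12 type 2 genes, 6 were compared for UV over CON and 2 were past 2-fold higher, Il1rl1 and Areg, beside 7.87% of all genes, with a median of -0.07 (0.55 in the stricter set). Areg had 87, 302 and 282 UMIs, a log2 ratio of 1.24 (0.90 to 1.60), or 1.53 in the stricter set, and a UMI in 20 of 84, 27 of 109 and 43 of 179 members. The share of Areg-positive members thus differed little between libraries, and 86 of the 302 UV UMIs were in 1 cell.

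Regulatory genes had 2 of 16 past 2-fold higher and 1 lower for UV over CON, near the 7.87% and 3.37% of all genes, with a median of -0.11. The genes higher were again Il1rl1 and Areg, which are on the type 2 list as well. The stricter set had 4 of 14 higher, beside 4.06% of all genes, with a median of 0.57. For Rux over UV 0 of 17 were higher and 2 lower, beside 2.01% and 4.85% of all genes. These were Il1rl1 at -1.12 (-1.48 to -0.76) and Lrrc32 at -1.06, which were -0.72 and 0.33 in the stricter set. Receptor complex and signalling genes, which include those of the rule, had medians of -0.30, 0.33 and 0.11 for UV over CON, Rux over UV and Rux over CON. In the stricter set these were 0.00, 0.08 and 0.09. Cd27 was past 2-fold lower for UV over CON at -1.06, the 1 call among 22 genes, beside 3.37% of all genes. In the stricter set 0 of 22 were past 2-fold. Tissue residence genes had medians of -0.12, -0.04 and -0.24, with 0 of 11 past 2-fold. Over all genes between 2.01% and 7.87% were past 2-fold in a given direction. In the stricter set these medians were -0.04, -0.24 and -0.03, and 1 of 11 was higher for UV over CON, beside 4.06% of all genes. Naive and circulating genes had medians of -0.03, 0.31 and 0.10, and -0.01, 0.14 and 0.08 in the stricter set. Of these genes, 2 of 10 were past 2-fold higher for UV over CON, beside 7.87% of all genes. For Rux over UV 1 of 11 was lower (4.85% over all genes), and for Rux over CON 2 of 12 were higher (5.18%). Chemokine receptors had medians of -0.12, 0.38 and 0.33, and 0.08, 0.14 and 0.27 in the stricter set. Of 10 chemokine receptors compared for Rux over CON, 1 was past 2-fold higher, beside 5.18% of all genes. This was Cxcr4, the receptor of CXCL12, with 41, 86 and 186 UMIs and a log2 ratio of 1.03 (0.54 to 1.56), or 1.24 in the stricter set.

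Cytokines and ligands had 3 of 13 past 2-fold higher and 4 lower for UV over CON, beside 7.87% and 3.37% of all genes, with a median of -0.31 that was 0.17 in the stricter set. Tnfsf8 and Areg, described above, were among those higher. So was Tnfsf11, the ligand RANKL, with 52, 160 and 258 UMIs and log2 ratios of 1.06 (0.61 to 1.55) for UV over CON and 0.10 (-0.19 to 0.39) for Rux over UV, or 1.08 and 0.01 in the stricter set. Innate-like T cell genes had 2 of 3 past 2-fold lower for UV over CON, Zbtb16 at -1.41 and Slamf6 at -1.08, beside 3.37% of all genes. They were at -1.13 and -0.94 in the stricter set, where 1 of 3 was lower beside 3.98%.

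Stress lists depended on the members used. Immediate-early genes had 4 of 27 past 2-fold higher and 1 lower for UV over CON, beside 7.87% and 3.37% of all genes. The stricter set had 0 of 25 higher and 5 lower, beside 4.06% and 3.98%. Fos, a subunit of AP-1, had log2 ratios of -0.67 for all members and -1.27 in the stricter set. Jun, its partner, had 1.54 and -0.49. Heat shock, glucocorticoid-responsive, antioxidant and p53 genes had medians of 0.13, 0.02, 0.02 and 0.30 for UV over CON, and -0.38, -0.05, -0.23 and 0.03 in the stricter set. The metallothionein gene Mt1 had a UMI in 86.9%, 78.9% and 58.7% of members and 461, 811 and 669 UMIs, of which 1 UV member held 424. Its log2 ratio for Rux over UV was -0.87 (-1.02 to -0.72) over all members, -0.18 without the largest member of each library and -0.80 (-1.12 to -0.48) in the stricter set, and in Pdgfra cells it was 5416, 3892 and 2654 CPM.

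**Figure D5:**
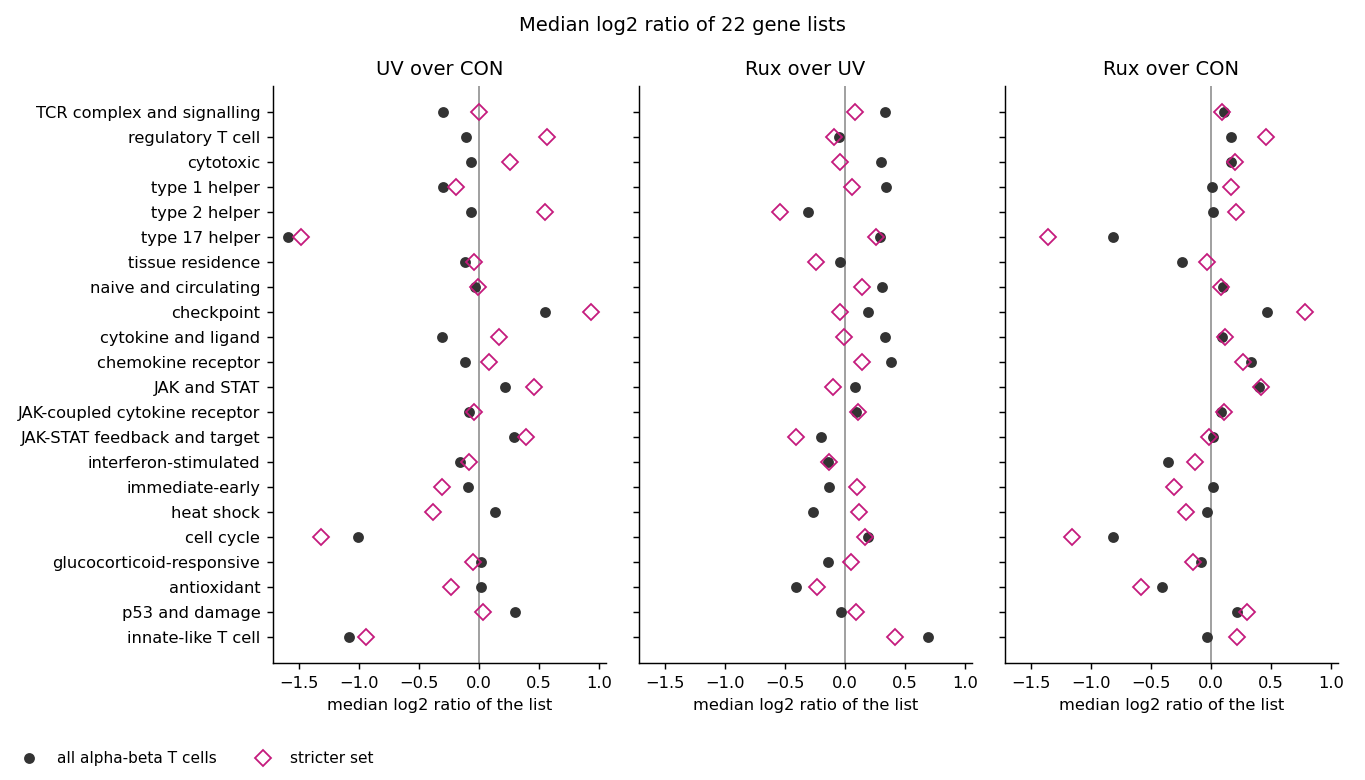
Median log2 ratio of CPM for 22 gene lists (rows) in the 3 comparisons, over all alpha-beta T cells (filled circles) and over the stricter set (open diamonds). The cell cycle and type 17 lists were below 0 for UV over CON in both, at -1.01 and -1.59 over all cells. The type 17 median changed sign with a minimum of 100 UMIs, which is not shown.

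Applied to the stricter set, the naming rule gave for UV over CON, after Tnfsf8, the genes Dlg2, Ifitm1, Tmtc2 and Dusp16 at the high end. Ifitm1, an interferon-induced membrane protein, had 9, 143 and 106 UMIs there, and log2 ratios of 3.54 in the stricter set and 1.54 over all members. Dusp16, a phosphatase of the stress kinases, had 5, 54 and 36 UMIs and a log2 ratio of 2.94 there. Slc16a10, Immp2l, Ccl4 and Cd160 were at the low end. For Rux over CON, Tnfsf8 and Gzma were followed by Nrp1, a co-receptor found on regulatory T cells, with 2, 19 and 44 UMIs and a log2 ratio of 2.93. For Rux over UV the high end was led by Dsp, a desmosome protein of keratinocytes, with 5, 2 and 37 UMIs there but a ratio of -0.15 over all members, and the low end by Mid2, with 6, 28 and 10 UMIs.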

How the data were processed

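The 3 libraries (10x) of dorsal skin, 1 per condition, gave 13170 CON, 12411 UV and 11287 Rux cells over 32285 genes. The deposited values are UMI counts per gene and cell, which the authors made by alignment to mm10 and did not normalise. The submitters' notes name Cell Ranger 6.1.2 and Seurat 5.3.0, whereas the matrix headers name version 7.0.0. Whether intronic reads were counted was not given in the sources used here.

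Cells were filtered and chosen as stated above. The members and gene lists were chosen with earlier results of these data known. Counts were summed over members per library, and log2 ratios were taken of CPM (UMIs scaled to 1e6 member UMIs) with 0.5 UMI added, over genes with at least 30 UMIs. Exact Clopper-Pearson, Poisson and conditional binomial 95.0% intervals cover counting error only, and for a gene a count of 0 was read as up to 3 counts. The code was tested on simulated data.

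Named genes were markers, genes of the gene lists, and genes among the 10 highest and 10 lowest ratios per comparison. List genes were mainly those with the most UMIs or past 2-fold, and no heat shock or p53 gene was named. The naming rule for the highest and lowest ratios was a UMI in at least 10 members of the higher library. The stricter set and the omission of the largest members were chosen after seeing the data. Doublets were not removed in the main results. Scrublet scores, at 0.8% doublets per 1000 cells, were an alternative. Gene positions are from GENCODE on mm10. Python 3.11.15, numpy 2.4.6, scipy 1.17.1, pandas 2.3.3, scanpy 1.11.5 and matplotlib 3.10.9 were used.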

Additional observations from a re-analysis of the deposited data

How the results depend on the processing

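The order of the libraries in the alpha-beta share, CON lowest and Rux highest, was the same under each alternative, but the level was not. With cells thinned to 2000 UMIs before the rule the shares were 0.518%, 0.652% and 1.16%, with 1 Cd3 gene enough 1.14%, 1.16% and 2.10%, and without members with Krt5, Krt14 or Lyz2 0.241%, 0.574% and 0.848%. In the stricter set the CON share was 0.557%. The CD4 gate held 23.8%, 33.9% and 41.3% without thinning. Thinned to 1000 UMIs it held 10.9% in UV and 13.0% in Rux, and the CD8 gate 13.4% and 17.7%.

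Counts of genes past 2-fold followed the thresholds. With minimums of 10 and 100 UMIs and with a fold of 1.5 they were 1156, 142 and 1082 higher and 602, 36 and 751 lower for UV over CON. They were 501, 35 and 569 higher and 937, 96 and 1059 lower for Rux over UV, and 891, 103 and 923 higher and 729, 45 and 921 lower for Rux over CON. In the stricter set 194 were higher for UV over CON, 94 higher and 140 lower for Rux over UV, and 201 higher for Rux over CON. Without the largest members 327 were higher for UV over CON, and without the highest Scrublet scores 218 were higher for Rux over CON.

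In the stricter set the sign of the list median differed from that over all members for 8 of 22 lists for UV over CON, 8 for Rux over UV and 3 for Rux over CON, of which 1, 3 and 0 had medians of at least 0.2 in size. Of medians of that size, those that changed sign under an alternative included cytotoxic for Rux over UV (-0.04, stricter set), type 17 for UV over CON (0.16, minimum of 100 UMIs) and for Rux over UV (-0.09, without the largest members), and heat shock for Rux over UV (0.02 with equal weight per cell, 0.12 in the stricter set). Cytokine and ligand medians also changed sign, for UV over CON to 0.23 with equal weight, 0.36 and 0.06 with minimums of 10 and 100 UMIs and 0.17 in the stricter set, and for Rux over UV to -0.02 with equal weight and -0.01 in the stricter set. The causes were not tested. No paired analysis was possible because each condition had 1 library. CON values rest on 84 cells, and differences between libraries cannot be told apart from differences between mice or preparations.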
